A study of Mus musculus with 40 samples.

Results

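Interferon response genes are the genes that cells switch on when an interferon reaches its receptor, and 40 of them were followed here in the white fat that lies beneath the skin of mice (sWAT). They were chosen by symbol, as 40 of the 34843 gene symbols in the count table. Of these, 39 passed the filter on low counts, among 15807 genes tested. Mx2, of the dynamin-like antiviral GTPase family but annotated in mm10 as a polymorphic pseudogene, did not pass the filter. It lay at 7.08 CPM (counts scaled to the effective size of each library) or less in every library.

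The 5 groups of 8 libraries came from mice on a high-fat diet (HFD) that received a dietary intervention (HFD -> ND) to the diet labelled ND, called the diet switch below, HFD-fed mice given tirzepatide, HFD-fed mice given semaglutide, HFD-fed mice and mice fed the diet labelled ND. The first 4 groups thus share the HFD. Both drugs are incretin analogs, semaglutide acting on the GLP-1 receptor and tirzepatide on the GLP-1 and GIP receptors. The study asked which genes stayed deregulated and which returned under these drugs. Strain, sex, age, dose and duration are absent from the labels used here. Whether the switch mice had an incretin analog earlier, as the order of words in the series title would allow, is also not stated. Nor do the labels say that the libraries of a group came from separate animals, and a p-value then measures the spread between libraries only, which may be technical.

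Type I interferons bind a receptor whose kinases switch on a complex that holds STAT2 and IRF9 and binds the interferon-stimulated response element of target genes. Interferon gamma binds another receptor and acts on gamma-activated sequences, often by way of the transcription factor Irf1. The targets include sensors and destroyers of viral RNA, GTPases that attack the vacuoles of intracellular microbes, and the machinery that cuts and loads peptides for class I antigen presentation, and adipocytes as well as immune and endothelial cells of fat tissue can express them.

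The core letters of both elements were searched in promoter windows of 300 bases, from 250 bases before to 50 after a gene's start, taken from RefSeq on GRCm38.p6, the assembly known as mm10. Windows were found for 29 of the 40 genes. GAAANNGAAA, the core of the interferon-stimulated response element, occurred on either strand in 16 of these 29 genes (55.2%), against 3.99% of 27025 genes and 3.44% of 32851 promoters. TTCNNNGAA, the core of the gamma-activated sequence, occurred in 8 of the 29 (27.6%), against 9.55% of genes and 8.30% of promoters. The windows below show 3 genes that rose after the diet switch, Irf1, Gbp7 and Gbp3, and 2 classical targets of type I interferon that passed the test in no comparison, Isg15 and Ifit1. Capitals mark the letters that match either core.
Irf1: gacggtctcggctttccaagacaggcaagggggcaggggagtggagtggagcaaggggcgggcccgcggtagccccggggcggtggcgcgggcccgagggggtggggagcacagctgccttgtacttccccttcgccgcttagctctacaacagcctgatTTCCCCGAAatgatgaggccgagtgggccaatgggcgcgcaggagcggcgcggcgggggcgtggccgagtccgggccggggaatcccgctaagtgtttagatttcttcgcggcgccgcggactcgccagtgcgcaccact
Gbp7: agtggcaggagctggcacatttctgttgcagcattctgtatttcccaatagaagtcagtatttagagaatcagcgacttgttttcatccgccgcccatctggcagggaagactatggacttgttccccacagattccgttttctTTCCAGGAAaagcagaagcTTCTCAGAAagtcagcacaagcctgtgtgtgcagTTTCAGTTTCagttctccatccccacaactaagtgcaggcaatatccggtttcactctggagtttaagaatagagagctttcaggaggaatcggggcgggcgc
Gbp3: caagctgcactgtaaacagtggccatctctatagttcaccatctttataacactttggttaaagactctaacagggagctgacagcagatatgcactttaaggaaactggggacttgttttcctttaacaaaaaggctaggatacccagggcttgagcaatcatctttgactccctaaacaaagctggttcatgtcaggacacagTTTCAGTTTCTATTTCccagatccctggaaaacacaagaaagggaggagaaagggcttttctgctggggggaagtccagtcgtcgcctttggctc
Isg15: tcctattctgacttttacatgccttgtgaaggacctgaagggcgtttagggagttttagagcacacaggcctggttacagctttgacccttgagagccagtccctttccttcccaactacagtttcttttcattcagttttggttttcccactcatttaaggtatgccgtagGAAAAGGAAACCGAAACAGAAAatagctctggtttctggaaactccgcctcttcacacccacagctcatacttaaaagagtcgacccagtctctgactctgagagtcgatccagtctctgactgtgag
Ifit1: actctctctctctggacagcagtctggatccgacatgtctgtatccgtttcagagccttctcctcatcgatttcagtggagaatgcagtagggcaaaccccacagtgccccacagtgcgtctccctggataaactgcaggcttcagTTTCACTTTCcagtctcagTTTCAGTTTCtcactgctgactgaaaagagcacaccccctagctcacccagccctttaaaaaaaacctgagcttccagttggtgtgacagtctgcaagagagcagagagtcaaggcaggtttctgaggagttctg
All windows are on GRCm38.p6. RefSeq gave 34 windows for the 29 genes, and a gene was counted where any of its windows matched. Irf1 and Gbp3 each have another window (chr11:53770223-53770522 and chr3:142560106-142560405) with no match to either core, which is not printed. The printed Irf1 window (chr11:53769764-53770063, plus strand) held TTCNNNGAA alone, starting 90 bases before the start site. In the Gbp7 window (chr3:142530086-142530385, plus strand) GAAANNGAAA began 53 bases before the start site, and TTCNNNGAA at 106 and 87 bases. The printed Gbp3 window (chr3:142559794-142560093, plus strand) held matches to GAAANNGAAA that overlapped, beginning 45 and 39 bases before the start site. Isg15 (chr4:156200769-156201068, minus strand) had 3 overlapping matches to GAAANNGAAA, beginning 78, 72 and 66 bases before its start site, and Ifit1 (chr19:34640639-34640938, plus strand) had 2, at 104 and 85 bases. A match describes letters, not a bound site, and a core motif was present in windows of some genes that rose and of some that passed no test. The printed genes were all ones with a match. Of the others that rose, Ifih1, Rsad2, Trim30a and Psmb8 had a match to a core, and Ifi44, Ifi47 and Oasl2 had none to either.

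Libraries held 2115471 to 7445548 counts, with a median of 3765319. LexoGen QuantSeq counts the ends of transcripts, so levels are compared between libraries and not between genes. The tissue label fits the markers, since all 10 adipocyte genes, among them Adipoq and Plin1, were detected in every group and summed to 9110 CPM or more in every library. Diet switch libraries 3, 4 and 7 stood apart from the rest, with scores of 80.6, 73.1 and 62.1 on the leading principal component of the spread inside groups (11.6% of it), where tirzepatide library 8 came next at 36.0. Calls for the diet switch over HFD, ND and semaglutide are therefore also given without these 3 libraries, apart from the calls of cell markers. In the text, genes that passed no test and the switch over tirzepatide are given with all 8 diet switch libraries only. B cell genes were high in ND library 5 and semaglutide libraries 1, 3 and 8, and skeletal muscle genes in 10 libraries spread over 4 groups. The numbering of libraries follows the groups, so its order is confounded with them. In whole tissue fewer cells of a type and less RNA per cell cannot be told apart.

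Taken over the 39 tested genes, the mean level was 4.37 ± 0.19 log2 CPM after the diet switch (SD, n = 8), 4.26 ± 0.26 with tirzepatide, 4.07 ± 0.11 with semaglutide, 4.01 ± 0.21 on HFD and 4.11 ± 0.36 on ND. Without libraries 3, 4 and 7 the diet switch mean was 4.31. The ranges of the 5 groups overlapped, with ND the widest, between 3.74 and 4.73.

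**Figure D1:**
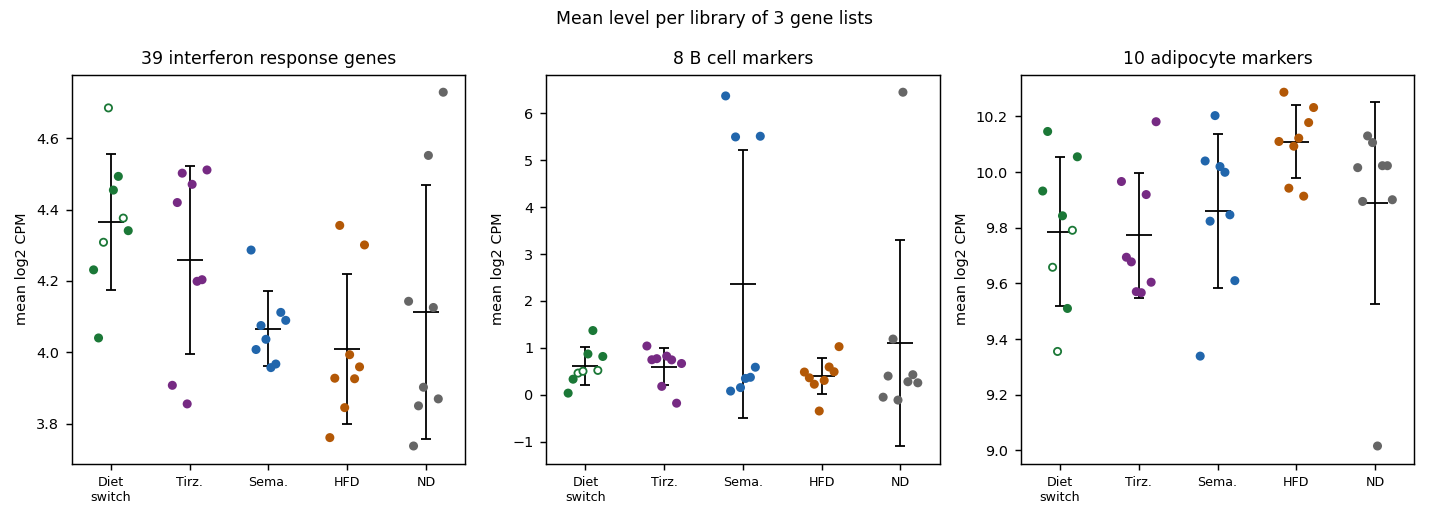
Mean log2 CPM per library (points) of the 39 tested interferon response genes, 8 B cell markers and 10 adipocyte markers, by group, with group mean and SD (n = 8); open circles are diet switch libraries 3, 4 and 7. The interferon response genes average 4.37 after the diet switch and 4.01 on HFD, and the 4 libraries high in B cell markers lie above 5.

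The diet switch was compared with continued HFD to see which of these genes it changed. After the switch 14 genes rose, 1 fell and 24 did not pass the test (edgeR quasi-likelihood test, Benjamini-Hochberg adjusted p under 0.05 over all genes). The 15 called make 38.5% of the 39, where 23.8% of all genes tested were called, and the 14 that rose make 35.9%, where 12.8% of all genes rose and 10.9% fell. The median log2 fold change was 0.51 over the 39 genes and 0.03 over all genes. Those that rose came from 8 of the 9 roles: the transcription factor Irf1, the oligoadenylate synthetase family (Oas2, Oasl2), the RNA sensor Ifih1, the Isg15 protease Usp18, the antiviral effectors Rsad2, Ifi44, Parp14 and Trim30a, guanylate-binding proteins (Gbp3, Gbp7), immunity-related GTPases (Iigp1, Ifi47) and the immunoproteasome subunit Psmb8. None of the 4 Ifit genes passed.

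Most of these calls ended when libraries 3, 4 and 7 were left out. Without them 2 of 40 genes tested passed, Ifi44 and Gbp7, where 6.97% of all genes were called, with 5 diet switch libraries in place of 8. All 15 genes called with the 8 libraries kept their sign, and their median log2 fold change was 0.61, against 0.71 with the 3 libraries. The loss of power with fewer libraries and the levels of these 3 libraries cannot be told apart here.

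**Figure D2:**
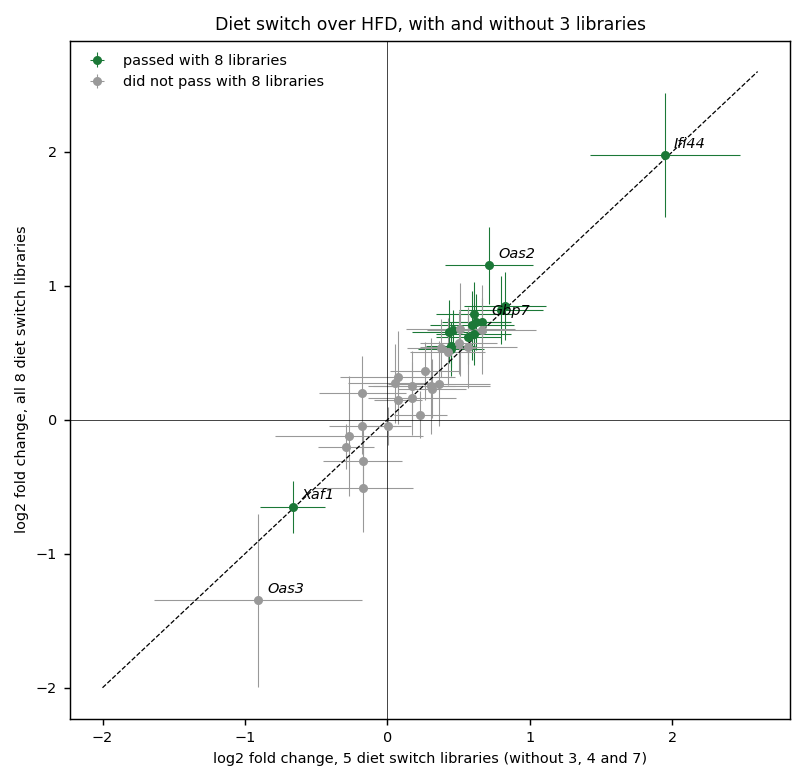
Log2 fold change of diet switch over HFD for each of the 39 tested genes, with all 8 diet switch libraries on one axis and without libraries 3, 4 and 7 on the other. Bars are SEs, the dashed line marks equal values, and green marks genes that passed with 8 libraries. Ifi44 lies at 1.98 with all 8 and 1.95 without the 3, and Oas2 at 1.15 with all 8 and 0.71 without the 3.

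Among transcription factors, Irf1 (chr11:53770014-53778374, mm10, GENCODE M21), which drives many interferon gamma targets, had 108, 159 and 257 CPM as lowest, median and highest value after the diet switch, against 83.3, 101 and 116 CPM on HFD. In 7 of 8 switch libraries it lay above every HFD library, and library 4 was the highest. The log2 fold change was 0.67 ± 0.15 (SE, n = 8 per group; edgeR adjusted p = 0.00142), and without libraries 3, 4 and 7 it was 0.46 ± 0.16 (adjusted p = 0.0701). Tirzepatide libraries held 86.02, 135 and 186 CPM and semaglutide libraries 104, 118 and 144 CPM, and ND libraries 65.6, 97.1 and 135 CPM. Irf7, the amplifier of type I interferon production, stood at 0.16 ± 0.27 against HFD, and Irf9 and Stat2, which belong to the type I complex, at 0.15 ± 0.15 and -0.20 ± 0.17, and none of the 3 passed.

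Guanylate-binding proteins and immunity-related GTPases, which act on the vacuoles of intracellular microbes, had members that rose. Gbp7, Gbp3 and Gbp2 are neighbours on chromosome 3 (Gbp7 at chr3:142530342-142550149). Gbp7 had 52.4, 79.5 and 92.6 CPM after the switch against 31.9, 43.6 and 72.3 CPM on HFD, and 5 of 8 switch libraries lay above the highest HFD library. Its log2 fold change was 0.73 ± 0.18 (adjusted p = 0.00261) and stayed past the test without libraries 3, 4 and 7, at 0.67 ± 0.20 (adjusted p = 0.0364). Gbp3 had 10.6, 15.3 and 20 CPM after the switch against 5.94, 7.55 and 14.7 CPM on HFD, with overlap, and rose by 0.79 ± 0.24 (adjusted p = 0.0125; 0.61 ± 0.27 without the 3 libraries). Iigp1, an immunity-related GTPase that coats parasite vacuoles in mouse cells, had 50.7, 74.9 and 104 CPM after the switch against 25.2, 39.3 and 74.9 CPM on HFD. It rose by 0.82 ± 0.25 (adjusted p = 0.0157), and stood at 0.80 ± 0.30 without the 3 libraries. Ifi47 (chr11:49076587-49096974), of the same family as Iigp1, had 14.1, 18.7 and 22.2 CPM after the switch against 6.31, 10.7 and 13.4 CPM on HFD. The groups did not overlap for Ifi47, and its log2 fold change was 0.85 ± 0.26 (adjusted p = 0.0128), but 0.83 ± 0.29 (adjusted p = 0.0741) without libraries 3, 4 and 7, which missed the test. Its exons overlap Olfr56 on the same strand, so reads of both may be shared, and the same holds for Igtp with Irgm2, Irf9 with Rnf31 and Gbp7 with the pseudogene Gm43802. Exons of Parp14 and Rtp4 overlap the Gm49730 and Gm45338 on the same strand, and those of Irf1 and Psmb8 overlap Gm17334 and Gm20496 on the opposite strand. Gbp2, Gbp6, Irgm1 and Igtp lay between 0.20 and 0.53 on the log2 scale and did not pass.

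The oligoadenylate synthetases make a messenger that activates RNA-cutting RNase L. Oas2 (chr5:120730333-120749853) had 2.30, 9.37 and 20.6 CPM after the switch against 2.37, 4.45 and 5.82 CPM on HFD. The ranges overlapped, with 7 of 8 switch libraries above the HFD median, and the log2 fold change was 1.15 ± 0.29 (adjusted p = 0.00296). Without libraries 3, 4 and 7 it was 0.71 ± 0.31 (adjusted p = 0.154). Oasl2, a synthetase-like relative with 11.9, 25.9 and 47.6 CPM after the switch against 12.6, 14.6 and 24.5 CPM on HFD, rose by 0.73 ± 0.21 (adjusted p = 0.00899) and stood at 0.62 ± 0.24 without the 3 libraries. Oas1a, at 0.25 ± 0.36, and Oas3, at -1.35 ± 0.64, did not pass. The last 400 bases of Oas1a are 97.5% identical to Oas1g, so its count is uncertain.

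Among other effectors Ifi44 (chr3:151730922-151749960), an interferon-induced protein with antiviral activity, had the largest log2 fold change of the 39 after the switch against HFD. It had 5.63, 21.8 and 29.7 CPM after the switch, against 4.45, 10.7 and 18.4 CPM with tirzepatide, 2.47, 3.75 and 4.77 CPM with semaglutide, 0, 5.31 and 12.99 CPM on HFD and 2.05, 5.84 and 28.9 CPM on ND. Switch libraries lay above every semaglutide library, and 6 of 8 lay above the highest HFD library. The log2 fold change was 1.98 ± 0.46 over HFD (adjusted p = 0.00196) and 1.95 ± 0.53 (adjusted p = 0.0199) without libraries 3, 4 and 7. Parp14, an ADP-ribosyltransferase, rose by 0.55 ± 0.16 (0.44 ± 0.17 without the 3 libraries) and Trim30a, which dampens Toll-like receptor signalling in mouse cells, by 0.62 ± 0.20 (0.57 ± 0.23 without them). The Trim30a call ended without switch library 4 (adjusted p = 0.0505). Rsad2 (viperin, which blocks viral replication), Ifih1 (MDA5, a cytosolic RNA sensor), Usp18 (the protease that removes Isg15) and Psmb8 rose by 0.66 ± 0.24, 0.64 ± 0.23, 0.71 ± 0.26 and 0.53 ± 0.20. Without libraries 3, 4 and 7 the same 4 genes stood at 0.43 ± 0.26, 0.61 ± 0.27, 0.59 ± 0.30 and 0.45 ± 0.23. Their calls were close to the threshold and ended on leaving out any of 8 libraries for Rsad2, 12 for Ifih1, 10 for Usp18 and 28 for Psmb8.

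Xaf1 (chr11:72301629-72313733), an interferon-induced protein that promotes cell death, was the only one of the 39 that fell against HFD. It had 16.01, 20.02 and 25.2 CPM after the switch against 15.9, 29.5 and 51.8 CPM on HFD, a log2 fold change of -0.65 ± 0.19 (adjusted p = 0.0123). HFD library 2 decided this call, since without it the adjusted p was 0.0555, and without libraries 3, 4 and 7 the log2 fold change was -0.67 ± 0.23 (adjusted p = 0.0693). Bst2 (tetherin), Ifi27 and Ifi35 stood at 0.04 ± 0.18, -0.04 ± 0.14 and -0.04 ± 0.21 and did not pass. Isg15, the ubiquitin-like modifier, was -0.31 ± 0.25 and Mx1, an antiviral GTPase, -0.12 ± 0.45.

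**Figure D3:**
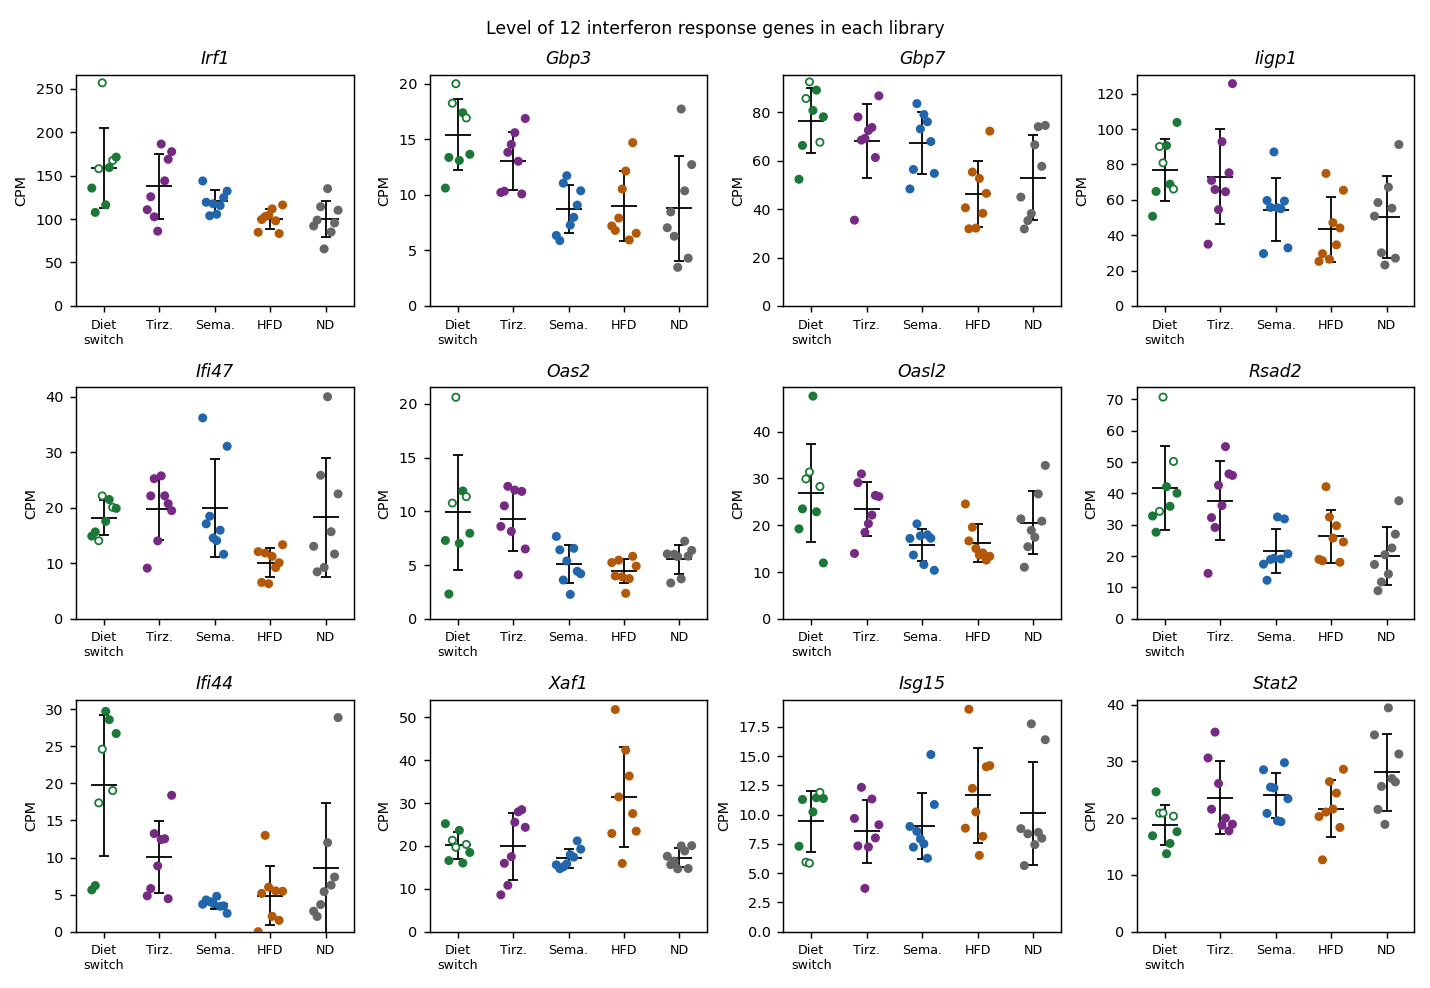
CPM of chosen genes in every library by group, with the mean and SD (n = 8 per group; bars stop at 0); open circles are diet switch libraries 3, 4 and 7. Irf1 library 4 of the diet switch reaches 257 CPM, and Ifi44 is at most 4.77 CPM in the semaglutide libraries.

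Of the 3 antigen processing members Psmb8 passed the test after the switch against HFD. Psmb9 and Tap1, which cut and carry peptides for class I molecules, stood at 0.25 ± 0.26 and 0.51 ± 0.25 over HFD. Psmb9 and Tap1 share exons on opposite strands, and whether strand was used in counting is not given in the sources used here. Of the 25 further genes of antigen presentation, 4 rose (B2m, H2-K1, H2-D1 and Erap1, led by Erap1 at 0.75 ± 0.22), 2 fell (Calr and H2-DMb1) and 19 did not pass, where 23.8% of all genes were called. Without libraries 3, 4 and 7 none rose and the same 2 fell.

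The diet switch against ND asked whether these genes differed from those of mice fed ND. Of the 39 genes 6 rose and 1 fell, or 17.9%, where 14.8% of all genes were called, and the 6 that rose make 15.4% where 7.97% of all genes rose and 6.82% fell. Rsad2 had 27.6, 38.00 and 70.8 CPM after the switch against 8.98, 18.9 and 37.7 CPM on ND, a log2 fold change of 1.06 ± 0.24 (adjusted p = 0.00341). The ranges overlapped. Irf1 (0.67 ± 0.15), Gbp3 (0.80 ± 0.24), Oas2 (0.84 ± 0.28), Gbp7 (0.53 ± 0.18) and Parp14 (0.49 ± 0.16) rose as well, and Stat2 fell by 0.58 ± 0.17. On leaving out any of 9 libraries the calls of Oas2 and of Gbp7 ended, and that of Parp14 ended without ND 3 or 4 or switch 3 or 5, so that 4 genes were called without ND 3, ND 4 or switch 3. Without libraries 3, 4 and 7 none of 40 genes passed the edgeR test, where 0.680% of all genes were called. In that fit 7 of the 40 had an unadjusted p under 0.05, and the like share of all genes was not computed. The 7 genes called with all libraries kept their sign, with a median log2 fold change of 0.47, against 0.67, and Rsad2 stood at 0.83 ± 0.26.

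Against semaglutide the switch gave 6 of 39 genes higher and none lower (15.4%), where 13.3% of all genes were called, 7.00% rose and 6.29% fell. Ifi44 was the largest, at 2.38 ± 0.48 (adjusted p = 0.00102), with no overlap between the groups, and it passed without libraries 3, 4 and 7 at 2.36 ± 0.54 (adjusted p = 0.0132). Rsad2 (0.95 ± 0.24), Gbp3 (0.82 ± 0.24), Oas2 (0.97 ± 0.28), Oasl2 (0.77 ± 0.21) and Rtp4, a receptor chaperone (0.69 ± 0.22), rose with all libraries and did not pass without the 3. The Oas2 call also ended without switch library 4 alone (adjusted p = 0.0861), and that of Rtp4 on leaving out any of 4 libraries. Without the 4 libraries high in B cell genes, 3 of which are semaglutide libraries, the calls of Oasl2, Ifi44 and Gbp3 held and the other 3 ended. All 6 genes kept their sign there, with a median log2 fold change of 0.87, against 0.89 with all libraries. The switch and tirzepatide differed for none of the 39 genes by the quasi-likelihood test of edgeR, where 0.399% of all genes were called (0.285% higher, 0.114% lower). By the same test 2 of the 39 had an unadjusted p under 0.05, as had 13.03% of all genes. None of the 39 passed with DESeq2 or limma-voom, each with 3 at an unadjusted p under 0.05.

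With tirzepatide 9 genes rose and 1 fell against HFD, and 29 did not pass. The 10 called are 25.6% of the 39, where 20.5% of all genes were called, and the 9 that rose are 23.1%, where 9.79% of all genes rose and 10.7% fell. The median log2 fold change was 0.39 over the 39 genes and 0.03 over all. Both comparisons use the same HFD libraries, so their values are only set side by side here. Usp18 had 7.52, 12.4 and 17.5 CPM with tirzepatide against 3.60, 6.04 and 11.1 CPM on HFD, a log2 fold change of 1.04 ± 0.26 (adjusted p = 0.00290), against 0.71 ± 0.26 for the switch. The groups overlapped. Ifi47 had 9.13, 21.5 and 25.8 CPM with tirzepatide, with a log2 fold change of 0.98 ± 0.25, and Oas2 4.10, 9.56 and 12.3 CPM, at 1.05 ± 0.29 (adjusted p = 0.00459 and 0.00724).

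Parp14 (0.54 ± 0.16), Gbp7 (0.57 ± 0.18), Irf1 (0.46 ± 0.15), Iigp1 (0.76 ± 0.25), Ifit3, an RNA-binding antiviral protein (0.68 ± 0.24), and Cmpk2, a mitochondrial nucleotide kinase (0.98 ± 0.34), rose, and Xaf1 fell by 0.65 ± 0.19. Ifit3 and Ifit3b share 95% of their last 400 bases, so their counts are uncertain. Several of these were close to the threshold: the Irf1 call ended on leaving out any of 5 libraries (HFD 1 and 7, tirzepatide 5, 7 and 8), that of Iigp1 any of 6, of Ifit3 any of 7 and of Cmpk2 any of 9. Without HFD library 2 the calls of Gbp7 and Xaf1 ended, at adjusted p = 0.0519 and 0.0599, and 5 genes were called in all. Skeletal muscle markers (12 genes) summed to 23.5 to 3256 CPM with tirzepatide and 38.3 to 1075 CPM on HFD. Without the 10 libraries high in them 5 of the 10 calls held (Ifit3, Usp18, Xaf1, Gbp7 and Ifi47). All 10 genes kept their sign, and their median log2 fold change was 0.86, against 0.72 with all libraries. That fit had fewer libraries, and the loss of power and the levels of the libraries left out cannot be told apart. Of the 11 muscle markers tested 3 rose with tirzepatide (Myh1, Myh2 and Atp2a1), where 9.79% of all genes rose. The part of muscle RNA in the other calls was not tested. Ifi44 stood at 1.03 ± 0.46 against HFD and did not pass.

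**Figure D4:**
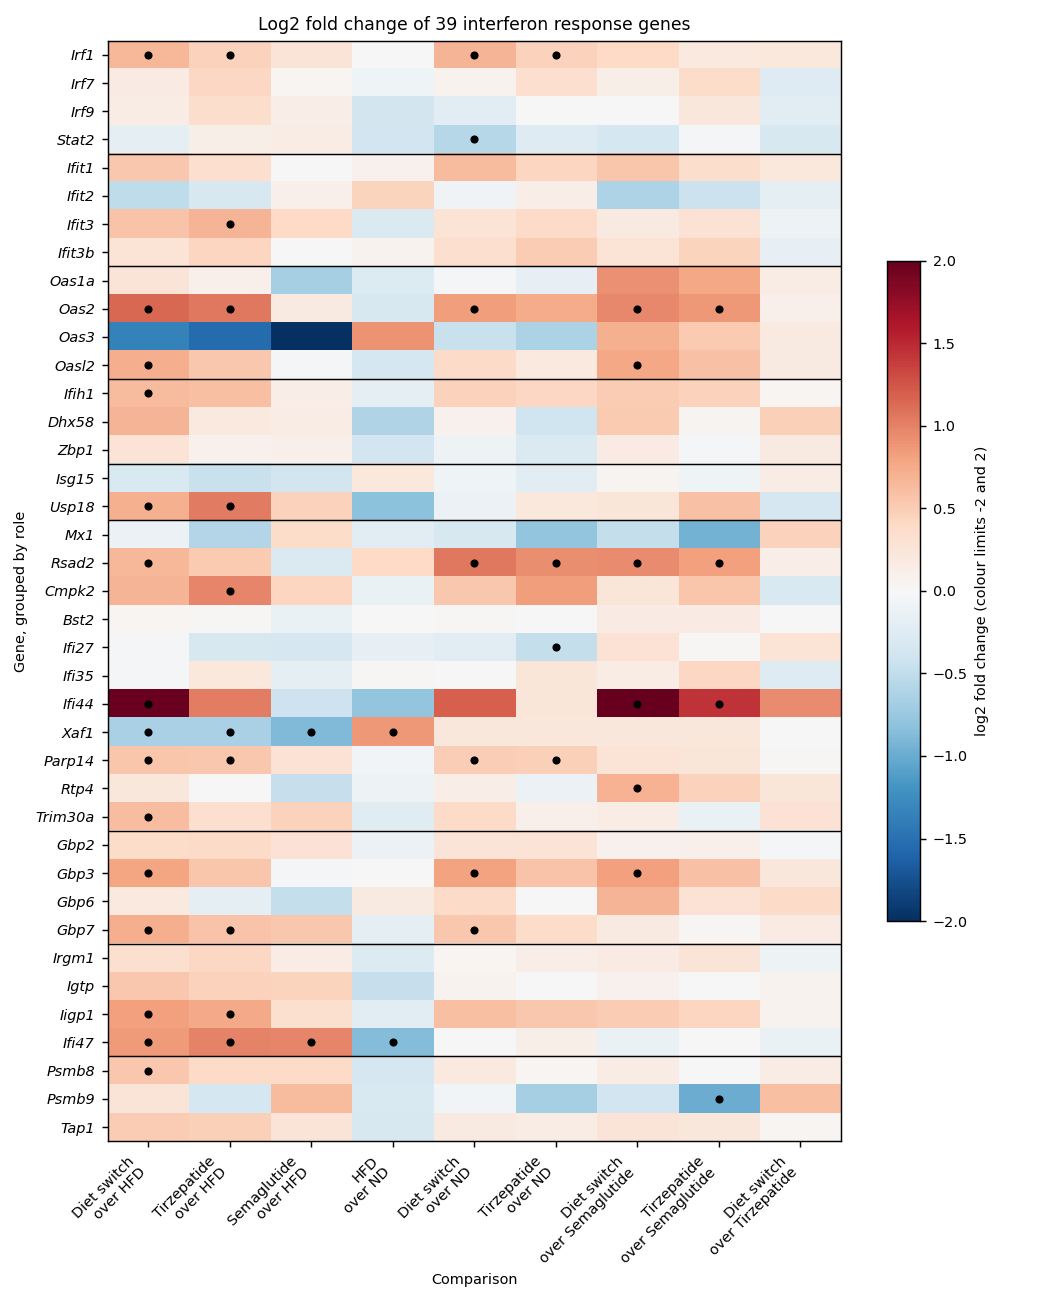
Log2 fold change of each of the 39 tested genes (rows) in 9 of the 10 comparisons (columns; semaglutide over ND is not drawn), with dots on the calls; red is above 0, blue below 0, and the colours stop at -2 and 2. Dots are most numerous in the columns for the diet switch over HFD (15) and tirzepatide over HFD (10).

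Semaglutide moved few of the genes, at shares near those over all genes. Against HFD Ifi47 rose by 0.98 ± 0.26 (adjusted p = 0.0176) and Xaf1 fell by 0.88 ± 0.20 (adjusted p = 0.00399), 2 of 39 (5.13%) where 4.15% of all genes were called (1.52% higher, 2.63% lower). Ifi47 had 11.6, 16.5 and 36.2 CPM with semaglutide, and the call ended without semaglutide library 1 or 8, both high in B cell genes (adjusted p up to 0.0737). B cell markers (8 genes) summed to 6.02 to 822 CPM with semaglutide and 2.71 to 15.5 CPM on HFD, where 1 of the 8 was at 0 in all libraries. Xaf1 kept its call on leaving out any 1 library. The median log2 fold change was 0.14 over the 39 genes and 0.05 over all. Against ND only Ifi27 differed, at -0.50 ± 0.14, 1 of 39 where 2.64% of all genes were called (0.905% higher, 1.73% lower), and that call ended on leaving out any of 11 libraries.

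On HFD against ND Xaf1 was higher by 0.87 ± 0.20 (adjusted p = 0.00350) and Ifi47 fell by 0.86 ± 0.26 (adjusted p = 0.0384), 2 of 39 (5.13%) where 4.50% of all genes were called (2.83% higher, 1.68% lower). Xaf1 had 15.9, 29.5 and 51.8 CPM on HFD against 14.7, 17.03 and 20.1 CPM on ND. Library removal left Xaf1 called in every case and ended the Ifi47 call for any of ND 3, 5 and 8 and HFD 2, 4, 5, 6 and 7. The median log2 fold change was -0.19 over the 39 genes, against -0.04 over all, with 11 of 39 above 0.

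Tirzepatide differed from ND for Irf1, Rsad2 and Parp14, which rose, and Ifi27, which fell (4 of 39, 10.3%, where 10.1% of all genes were called, 4.30% higher and 5.77% lower). The counts without 1 library lay between 1 (without ND 4 or tirzepatide 7) and 5. The log2 fold change was 0.47 ± 0.15 for Irf1, 0.92 ± 0.24 for Rsad2, 0.48 ± 0.16 for Parp14 and -0.48 ± 0.14 for Ifi27. The Irf1 call ended on leaving out any of 9 libraries, that of Parp14 any of 12 and that of Ifi27 either ND 4 or tirzepatide 7. Without the 10 libraries high in muscle genes, 4 of them tirzepatide and 2 ND, only the Rsad2 call of these 4 held. The 4 genes kept their sign, and their median log2 fold change was 0.47 with and without those libraries. Against semaglutide Oas2 (0.87 ± 0.28), Rsad2 (0.82 ± 0.24) and Ifi44 (1.44 ± 0.48) rose and Psmb9 fell by 0.99 ± 0.26 (4 of 39, where 10.02% of all genes were called, 4.11% higher and 5.92% lower). The Ifi44 call ended on leaving out any of 18 libraries and the Oas2 call any of 11, and that of Rsad2 ended without semaglutide 2 or tirzepatide 6. Without the 4 libraries high in B cell genes none of these 4 passed, and B cell markers summed to 4.74 to 14.9 CPM with tirzepatide. The 4 genes kept their sign there, with a median log2 fold change of 0.81, against 0.84, in a fit with fewer semaglutide libraries. In all 21 genes were called in at least 1 of the 10 comparisons and 19 in none, which were Isg15, Mx1, Irf7, Irf9, Ifit1, Ifit2, Oas1a, Oas3, Bst2, Zbp1, Dhx58, Tap1, Gbp2, Gbp6, Igtp, Irgm1, Ifi35, Ifit3b and Mx2.

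Among genes upstream of these targets Ifngr1, a chain of the interferon gamma receptor, rose by 0.94 ± 0.18 after the switch against HFD and did not pass without libraries 3, 4 and 7, at 0.54 ± 0.18 (adjusted p = 0.0570). Of 16 sensors and adaptors 3 rose and none fell, where 12.8% of all genes rose and 10.9% fell. Cgas, the DNA sensor that makes the messenger for STING, rose by 1.19 ± 0.39, with Myd88 and Rigi. Of these 3 genes Cgas alone stayed past the test without libraries 3, 4 and 7. The ligand Ifng gave 3 counts over the 8 libraries after the switch, 10 with tirzepatide, 5 with semaglutide, 3 on HFD and 8 on ND, too few for a test, and genes of interferon alpha and beta were not analysed here.

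Further type I targets were counted in the same way. Of 42 tested, 12 rose after the switch against HFD, none fell and 30 did not pass. Among all genes 12.8% rose and 10.9% fell in this fit with all switch libraries. Without libraries 3, 4 and 7, 5 of the 42 targets rose and none fell, where 6.97% of all genes were called. The 12 were led by members of the p200 family, which sense DNA: Ifi205 (2.19 ± 0.34, adjusted p = 1.76e-05), Ifi211 (1.95 ± 0.31), Ifi207 (1.28 ± 0.24) and Ifi204 (1.26 ± 0.23). These 4 kept their call without the 3 libraries, at 2.03, 1.60, 1.15 and 1.02, and they are related neighbours whose reads may be shared. With tirzepatide 9 of the 42 rose against HFD and none fell, where 9.79% of all genes rose and 10.7% fell. Of 14 further interferon gamma targets 2 rose (Cxcl9 and Gm4951) and 2 fell after the switch, beside 12.8% and 10.9% of all genes. Those that fell were Ubd, a ubiquitin-like modifier, at -3.55 ± 0.44 and Nos2, inducible nitric oxide synthase, at -1.53 ± 0.43. Without libraries 3, 4 and 7 Ubd alone of these 4 passed, at -3.76 ± 0.55, and Nos2 stood at -1.06 ± 0.45, Cxcl9 at 0.23 ± 0.24 and Gm4951 at 0.67 ± 0.32. With semaglutide 1 of the 42 rose against HFD and none fell, where 1.52% of all genes rose and 2.63% fell. On HFD none of the 42 passed against ND, where 4.50% of all genes were called.

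The genes varied together within groups only in part. Centred on the group means, the median correlation over 741 pairs was 0.185 and 79.6% of pairs lay above 0 (a description over 40 libraries that share their RNA and depth). Ifit3 and Trim30a followed the mean of the other genes most closely, at r = 0.75 each, and Ifi27 ran against it, at -0.29. The closest pair was Ifih1 and Iigp1, at 0.74, before Gbp7 and Iigp1, at 0.70.

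**Figure D5:**
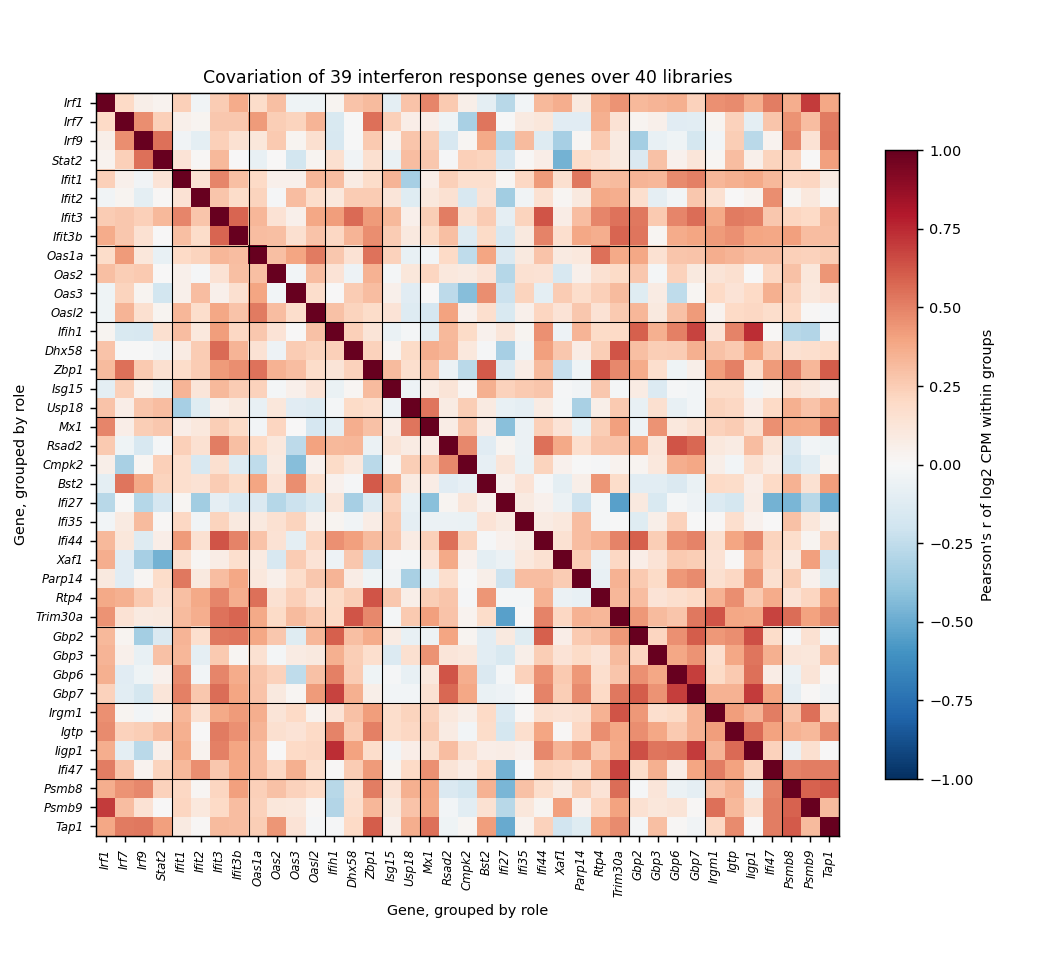
Pearson's r between each pair of the 39 tested genes (rows and columns, in order of role, with lines between roles), from log2 CPM centred on group means over 40 libraries; red is above 0 and blue below 0. Most cells are red (79.6% of pairs), and the row of Ifi27 is mostly blue.

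Markers of other cells were set beside the genes. The genes' mean followed dendritic cell markers at r = 0.46 within groups, T and NK cell markers at 0.40, B cell markers at 0.33 and adipocyte markers at -0.44, and macrophage markers at -0.04, again as a description. With the component on which switch libraries 3, 4 and 7 stood apart r was 0.43. ND library 5 and semaglutide library 1 were highest of their groups in dendritic, T and NK and B cell markers. They were lowest in adipocyte markers (9.02 and 9.34 log2 CPM), with means of the interferon response genes of 4.55 and 4.29. The r without these libraries was not computed. Dendritic cell markers (9 genes, none at 0 in any group) summed to 44.7 to 69.5 CPM after the switch and 43.9 to 71.9 on HFD, T and NK markers (12 genes) to 10.9 to 55.4 CPM after the switch and 14.1 to 33.1 on HFD, and macrophage markers (12 genes) to 724 to 1794 CPM after the switch and 1169 to 1588 on HFD. Of the tested markers of dendritic cells 1 rose (Zbtb46) and 1 fell (Itgax) after the switch, of T and NK cells none of 8 passed, and of macrophages 2 rose (Itgam and Mertk) and 2 fell (Lyz2 and C1qc). Of 7 endothelial markers 2 fell (Pecam1 and Tie1), and of 7 stromal markers 2 rose (Pdgfra and Dcn) and 2 fell (Pdgfrb and Dpp4). Of 10 adipocyte markers 1 rose and 2 fell, of 4 neutrophil markers tested 1 rose and 1 fell, and none of 2 B cell markers tested passed. Neutrophil markers (6 genes) summed to 16.3 to 67.7 CPM after the switch and 29.5 to 55.1 on HFD, with medians of 20.1 and 38.6. Skeletal muscle markers summed to 45.7 to 4008 CPM after the switch and 38.3 to 1075 CPM on HFD, and 1 of 11 rose (Myh1). Among all genes 12.8% rose and 10.9% fell. These marker calls were not tested without switch libraries 3, 4 and 7. Without them the switch mean in log2 CPM was 6.01 for macrophage markers (5.87 with all 8) and 7.70 for stroma (7.45). It was 6.18 for endothelium (6.22) and 2.10 for dendritic cells (2.05). For T and NK cells it was 0.39 (0.60), and for muscle 3.96 (3.63). Without the libraries high in muscle genes 11 of the 15 calls of the switch over HFD held, and those of Ifih1, Parp14, Trim30a and Psmb8 ended. All 15 genes kept their sign, with a median log2 fold change of 0.80, against 0.71, in a fit with fewer libraries. In the same fit the calls of Stat2, Oas2 and Parp14 ended for the switch over ND, those of Gbp3 and Oas2 for the switch over semaglutide, those of Oas2 and Psmb9 for tirzepatide over semaglutide, and those of Ifi47 for semaglutide over HFD and HFD over ND and of Ifi27 for semaglutide over ND. Adipocyte markers (10 genes) summed to 12129 to 20837 CPM after the switch and 18893 to 25281 on HFD, and the part of these cells in the results was not tested.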

How the data were processed

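RNA of 40 sWAT samples in 5 groups of 8 was extracted with Nucleozol, and libraries made with the LexoGen QuantSeq kit were run on an Illumina HiSeq, per the labels' protocols. The genome build was mm10, per the submitters' processing notes, while aligner, counter and annotation were not given in the sources used here. A table of counts per gene symbol, deposited by the authors, was used as it stands. A deposited normalized table was not used and holds 16 columns that match no sample.

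Genes were filtered with filterByExpr, normalized with TMM and fitted in 1 model over the 40 libraries with the quasi-likelihood test of edgeR 4.0.16 (R 4.3.3), robust, with 1 mean per group. A call means an adjusted p (Benjamini-Hochberg over all 15807 genes tested) below 0.05. The SE is the size of the log2 fold change over the root of F, and log2 CPM used a prior count of 2. The procedure was tested on simulated data. The 40 genes and all lists were chosen with earlier results of these data known. Members with full statistics were those called, at most 12 per comparison, and further lists gave at most 4 genes each. Some items are not reported here. Positions came from GENCODE M21 and promoters from RefSeq. Alternatives were DESeq2 1.42.0, its size factors, no filter, a minimum of 10 counts in 8 libraries, a fit of only the groups at hand, a block for the replicate number, limma-voom 3.58.1 with quality weights, libraries left out in sets (mean marker level above 5 log2 CPM) and each library left out in turn. Sequencing depth was 2115471 to 7445548 counts per library, and the SE printed beside each value reflects the spread between libraries together with depth.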

Additional observations from a re-analysis of the deposited data

Results flagged for a closer look

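Single libraries lay far from the other 7 of their group in 17 of 205 pairs looked at, each a group with a gene or with the mean. A rate of 1 in 20 would give about 10, if values were normally distributed and pairs independent, which was not tested. Irf1 reached 256.6 CPM in diet switch library 4, against 171.2 in the next, and Oas1a 18.53 CPM in diet switch library 5. Bst2 reached 173.8 CPM in tirzepatide library 3, and Parp14 was low in tirzepatide library 2, at 43.0 CPM. In semaglutide library 1, high in B cell genes, Irf9 reached 72.94 CPM, Zbp1 17.97, Psmb8 146.7 and Tap1 96.2, and the mean over the 39 genes was 4.287 log2 CPM, against 4.112 in the next library. Semaglutide library 3 had Cmpk2 at 9.243 CPM. In HFD library 3 Cmpk2 reached 9.037 CPM and Ifi44 12.99 CPM, and in HFD library 2 Ifit2 was low, at 2.345 CPM. ND library 5, also high in B cell genes, had Psmb8 at 109.5 CPM and Tap1 at 105.8 CPM. In ND library 8 Ifi44 reached 28.87 CPM and Rtp4 52.6 CPM.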

How the results depend on the processing

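No call among the 51 of single genes reversed its direction under any alternative. DESeq2 kept 50 of the 51 calls, its size factors in edgeR 50, the stricter filter 51, limma-voom with quality weights 46, only the 2 groups compared 40, no filter 34, and leaving out the diet switch libraries 3, 4 and 7 kept 25. Without the libraries high in B cell genes 40 remained, without those high in muscle genes 29, and 25 remained whichever library was left out. Same-numbered libraries did not deviate together (median r of -0.0502 to 0.121 over the comparisons), so the number was taken as a name only, and with the replicate block 16 genes were called for the switch over HFD and 50 of the 51 calls held. Counts of called genes that moved by over 1.5 times, the cause of which was not tested, were as follows. For HFD over ND they were 1 without the B cell-high libraries and 1 with only 2 groups. For semaglutide over HFD they were 1 without the B cell-high and 1 without the muscle-high libraries, 4 with only 2 groups and 4 with limma-voom, and over ND 0 without a filter, without either set and with only 2 groups. For tirzepatide over HFD they were 6 without a filter, 5 without the muscle-high libraries and 17 with limma-voom, over ND 1 without a filter, and over semaglutide 2 without a filter and 0 without the B cell-high libraries. For the switch they were 2 over HFD, 0 over ND and 1 over semaglutide without libraries 3, 4 and 7, and over ND 4 without a filter and 3 with only 2 groups. Leaving out 1 library gave 1 to 3 calls for HFD over ND and for semaglutide over HFD, 0 to 1 for semaglutide over ND, 5 to 14 for tirzepatide over HFD, 1 to 5 over ND, 2 to 5 over semaglutide, and 10 to 17, 4 to 10, 4 to 8 and 0 to 0 for the switch over HFD, ND, semaglutide and tirzepatide. The count of 5 arose without HFD library 2, and depth limits the genes of low level, such as Mx2, Oas3 and Mx1.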

Other observations

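Of genes outside every list, Ogfrl1, Psme2b and Grk4 varied most like the mean of the 39 genes within groups, at r = 0.72, 0.67 and 0.65 over 40 libraries, and among the listed genes Cxcl9 (0.67) and B2m (0.65) were among the closest. Isg15 was 95.4% identical to AC151275.1 over 238 bases near its end.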
